A study of Mus musculus with 24 samples.

Results

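The proteins that coat lipid droplets and govern their growth were examined here through 9 genes, the perilipins Plin2, Plin3, Plin4 and Plin5, the CIDE genes Cidea, Cideb and Cidec, and the lipase inhibitors G0s2 and Hilpda. They were picked by symbol from the 17537 genes that appeared in at least 1 of the tables. Levels came from RNA sequencing of livers of male C57BL/6 mice given gavages, with 24 libraries in 4 groups of 6. The vehicle group received 0.5% CMC, the ethanol group 1 g/kg ethanol, the DEHP group 2500 mg/kg di(2-ethylhexyl) phthalate (DEHP, a plasticiser), and the combination group both agents at those doses. The sample titles mention CMC for the vehicle group only, so if the other mice did not receive it, carrier and treatment cannot be told apart in comparisons with vehicle. Neither the ages of the mice nor the length of treatment is stated, and 12 mice are described for every 6 libraries, so the p-values refer to the spread between libraries, which may be technical in part.

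A lipid droplet is a core of triglyceride and sterol ester under a single layer of phospholipid, and hepatocytes store surplus fatty acids in it. Perilipins cover that surface and limit the access of lipases, CIDE proteins gather at contacts between droplets and pass lipid from the smaller to the larger, and G0S2 and HILPDA bind and inhibit adipose triglyceride lipase. In mouse liver Plin2, Cidea, Cidec and several other genes of this set are known targets of PPAR alpha, the fatty acid receptor that metabolites of DEHP activate. Because the tissue was bulk liver, fewer cells of a type and less RNA per cell cannot be told apart in any of these values.

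Depth ranged from 7324793 to 8016662 expected counts per library, and 10697 genes that reached 1 FPKM in at least 6 libraries were tested. FPKM is the read number divided by a transcript length, here shorter than the deposited length, and scaled to the assigned reads of the library. Of the hepatocyte markers, all 8 that were measured exceeded 1 FPKM in every library, a low bar for genes this abundant. Their summed FPKM ranged from 54876 to 71027 with vehicle and from 58886 to 73338 with ethanol. With DEHP it ranged from 41477 to 49593.5 and with the combination from 43229 to 48018, below both groups without DEHP. Whether this reflects hepatocyte content or RNA per cell was not tested. Of 11 skeletal muscle markers, 11 exceeded 1 FPKM in vehicle replicate 1 and in combination replicate 6, against at most 1 in any other library. DEHP replicate 6 held 10 of 10 pancreatic acinar markers above 1 FPKM, against at most 2 elsewhere. The same 3 libraries had 7, 9 and 8 of 10 adipocyte markers above 1 FPKM, compared with 4 or 5 in the others. Plin1, the perilipin of fat cells, was at 0.30 FPKM in vehicle replicate 1, 1.62 in combination replicate 6 and 1.73 in DEHP replicate 6, at 0.08 in vehicle replicate 5, and was not listed in the other libraries. For the 9 genes, results are therefore given with and without these 3 libraries where that changed a call or moved a called value by more than 1.5 times.

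The 250 bases before the transcription start are shown for the 4 genes on which the comparisons below turn, namely Plin2 and the neighbours Plin4 and Plin5, for which the interaction of ethanol and DEHP described below was called with all libraries (for Plin4 not without the 3 libraries with other tissue, and for Plin5 not without any 1 of 4 single libraries), and Cidec, which rose most among the genes listed in every library. Sequences are from RefSeq (GRCm38.p6) and run 5′ to 3′ on the strand of the gene, which is the minus strand for all 4. Capitals mark matches to any motif searched, on either strand. The motifs included AGGTCA, a hexamer bound by nuclear receptors. The direct repeat of that hexamer that PPAR alpha dimers bind was searched as AGGNCANAGGNCA. The core of hypoxia response elements was searched as ACGTG, which the E-box motif CACGTG contains. Common core promoter elements were searched as TATAAA for the TATA box and, separately, as CCAAT for the CCAAT box. The hexamer of steroid receptors was searched as AGAACA.
Plin2, chr4:86670060-86670309: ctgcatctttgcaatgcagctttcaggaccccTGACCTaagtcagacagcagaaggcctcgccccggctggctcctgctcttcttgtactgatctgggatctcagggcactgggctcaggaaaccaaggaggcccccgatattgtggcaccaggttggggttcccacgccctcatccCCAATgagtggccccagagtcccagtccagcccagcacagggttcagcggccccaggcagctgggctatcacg
Plin4, chr17:56109783-56110032: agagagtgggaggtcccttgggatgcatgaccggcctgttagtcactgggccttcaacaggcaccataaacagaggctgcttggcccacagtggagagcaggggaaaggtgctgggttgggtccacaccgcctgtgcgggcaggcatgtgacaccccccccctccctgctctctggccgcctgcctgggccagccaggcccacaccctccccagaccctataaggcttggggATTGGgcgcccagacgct
Plin5, chr17:56117549-56117798: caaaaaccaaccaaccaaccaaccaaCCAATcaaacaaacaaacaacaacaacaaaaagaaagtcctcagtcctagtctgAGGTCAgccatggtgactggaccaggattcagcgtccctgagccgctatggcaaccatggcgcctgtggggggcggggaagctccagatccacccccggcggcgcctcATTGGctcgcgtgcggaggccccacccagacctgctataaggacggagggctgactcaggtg
Cidec, chr6:113435761-113436010: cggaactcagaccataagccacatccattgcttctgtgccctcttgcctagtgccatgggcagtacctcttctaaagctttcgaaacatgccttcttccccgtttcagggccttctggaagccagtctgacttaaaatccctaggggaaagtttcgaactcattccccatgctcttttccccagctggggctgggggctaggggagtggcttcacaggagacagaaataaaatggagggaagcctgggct

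In these windows Plin2 held AGGTCA on the opposite strand, starting 218 bases before the start site, and a CCAAT box. Plin5 held AGGTCA on the gene strand, 170 bases before its start, and CCAAT on both strands, with no match at its second start. Plin4 held a CCAAT box alone, and Cidec held no match at this start or at its second one. For Plin2, Plin4 and Plin5 the start used lies inside the gene bounds, whose upper coordinates are 86670217, 56109948 and 56117606. Part of each of these windows is therefore within the gene, and the CCAAT boxes of Plin2 and Plin4 lie in that part. AGGTCA occurs in 14.0% and CCAAT in 33.8% of the 32851 RefSeq windows of this length, so either match is common. No direct repeat was found at any of the 11 starts examined, for 8 of the 9 genes, and 0.338% of all windows hold one. A match describes the letters and does not show binding.

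In vehicle livers the genes spanned more than 3 orders of magnitude in FPKM. Plin2, the main perilipin of hepatocytes, was at 286 ± 30.8 FPKM (SD, n = 6), and Cideb, which loads lipid onto very-low-density lipoproteins, at 264 ± 31.3, with overlapping ranges. G0s2 followed at 66.3 ± 31.2 and Plin5 at 43.8 ± 12.1, again overlapping, and then Plin3 at 22.9 ± 4.3. Plin4 was at 4.64 ± 2.68, Hilpda at 2.63 ± 0.55, Cidec at 1.29 ± 0.61 and Cidea at 0.155 ± 0.244 FPKM. Plin2 made up 41.4% ± 2.8 of the summed FPKM of the 9 genes with vehicle, 33.7% ± 2.1 with ethanol, 42.6% ± 4.5 with DEHP and 49.8% ± 2.3 with the combination.

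**Figure D1:**
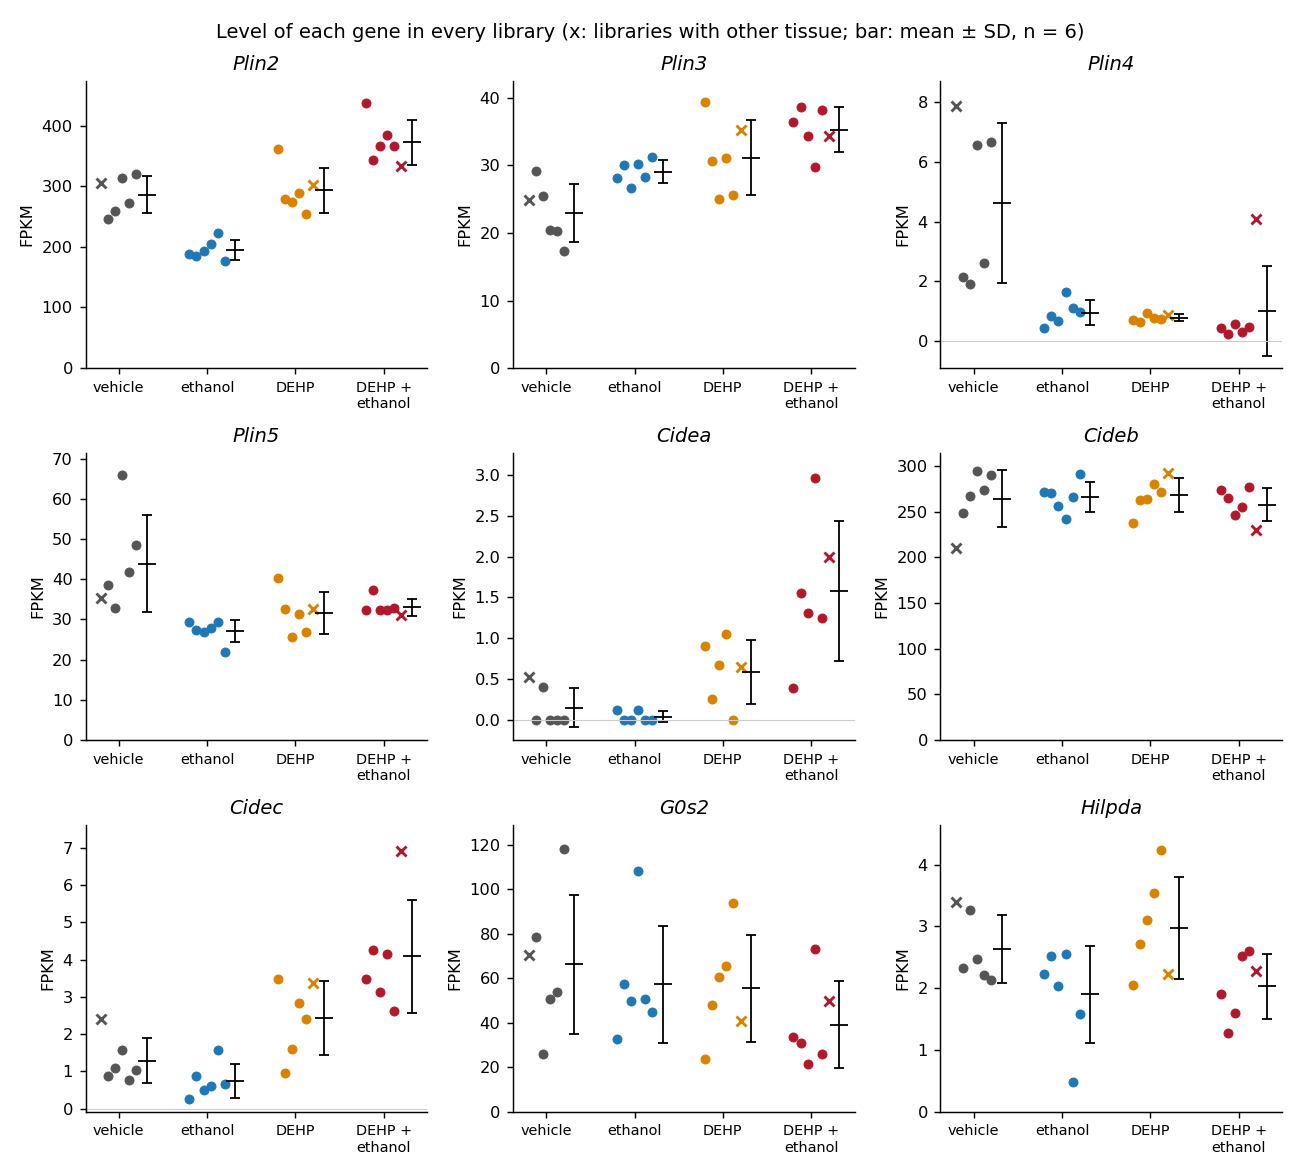
FPKM of the 9 genes (vertical axes, linear) in each of the 24 libraries by treatment group (horizontal axes). Each point is a library, crosses are the 3 libraries with transcripts of muscle or pancreas, and bars are the mean ± SD of 6 libraries. Plin2 was lowest with ethanol and highest with the combination, while Plin4 was highest with vehicle.

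After ethanol, Plin3 rose and Plin2 and Plin5 fell relative to vehicle (edgeR quasi-likelihood test, adjusted p below 0.05 over all genes tested), and after DEHP, Plin3 rose and Plin5 fell. After the combination, Plin2, Plin3 and Cidec rose and Plin5 fell. These counts cover 7 of the 9 genes. Plin4 and Cidea are counted apart, because each passed the filter on low values only with the help of the group in which it was highest. Of the 9 libraries in which Plin4 reached 1 FPKM 6 were vehicle libraries, and of the 6 in which Cidea did so 5 were combination libraries.

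Of the 7 genes, 3 were called after ethanol, where 28.8% of all tested genes were called, 14.2% as higher and 14.5% as lower. DEHP gave 2 of 7 against 26.0% (14.4% higher, 11.6% lower), and the combination 4 of 7 against 36.8% (19.3% higher, 17.4% lower). The median log2 changes of the 7 genes were -0.40, 0.02 and -0.04 in that order, beside -0.01, -0.02 and -0.01 for all genes tested. These comparisons share the vehicle libraries. Plin4 was called lower in all 3 of them, and Cidea higher with the combination. Cideb, G0s2 and Hilpda passed the test in none of the comparisons.

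Against ethanol, the combination had higher Plin2 and Cidec, 2 of 7, where 27.8% of genes were called and 15.1% called as higher, with medians of 0.21 and 0.02, and Cidea was also called higher. Against DEHP, edgeR called 0 of the 9 genes in the combination, as against 0.122% of all genes. An unadjusted p below 0.05 was found there for 2 of the 7 genes (Plin2 and Cidec) and for Cidea, and for 10.8% of all genes, and DESeq2 called 1, Plin2. The interaction compares the ethanol change in the presence of DEHP (combination over DEHP, log2) with the ethanol change in its absence (ethanol over vehicle). It was positive and called for Plin2 and Plin5, 2 of 7, and for Plin4, where it was called for 6.41% of all genes and called as positive for 3.32%.

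With no filter on low values, over 17524 genes, edgeR gave all 9 genes the same calls in each of the 6 comparisons. The share of all genes called was then 16.3% after ethanol, 14.1% after DEHP and 20.5% after the combination. It was 15.9% for the combination against ethanol and 3.93% for the interaction. Without the 3 libraries with other tissue, the number of the 9 genes called in each direction was the same for the 3 comparisons with vehicle and for the combination against DEHP. Plin4 was then also lower in the combination than in ethanol, and the interaction was called for Plin2 and Plin5 alone. In that fit 24.9% of all genes were called after ethanol, 19.6% after DEHP and 35.0% after the combination. The share was 0.0748% for the combination against DEHP, 28.5% for the combination against ethanol and 3.41% for the interaction.

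**Figure D2:**
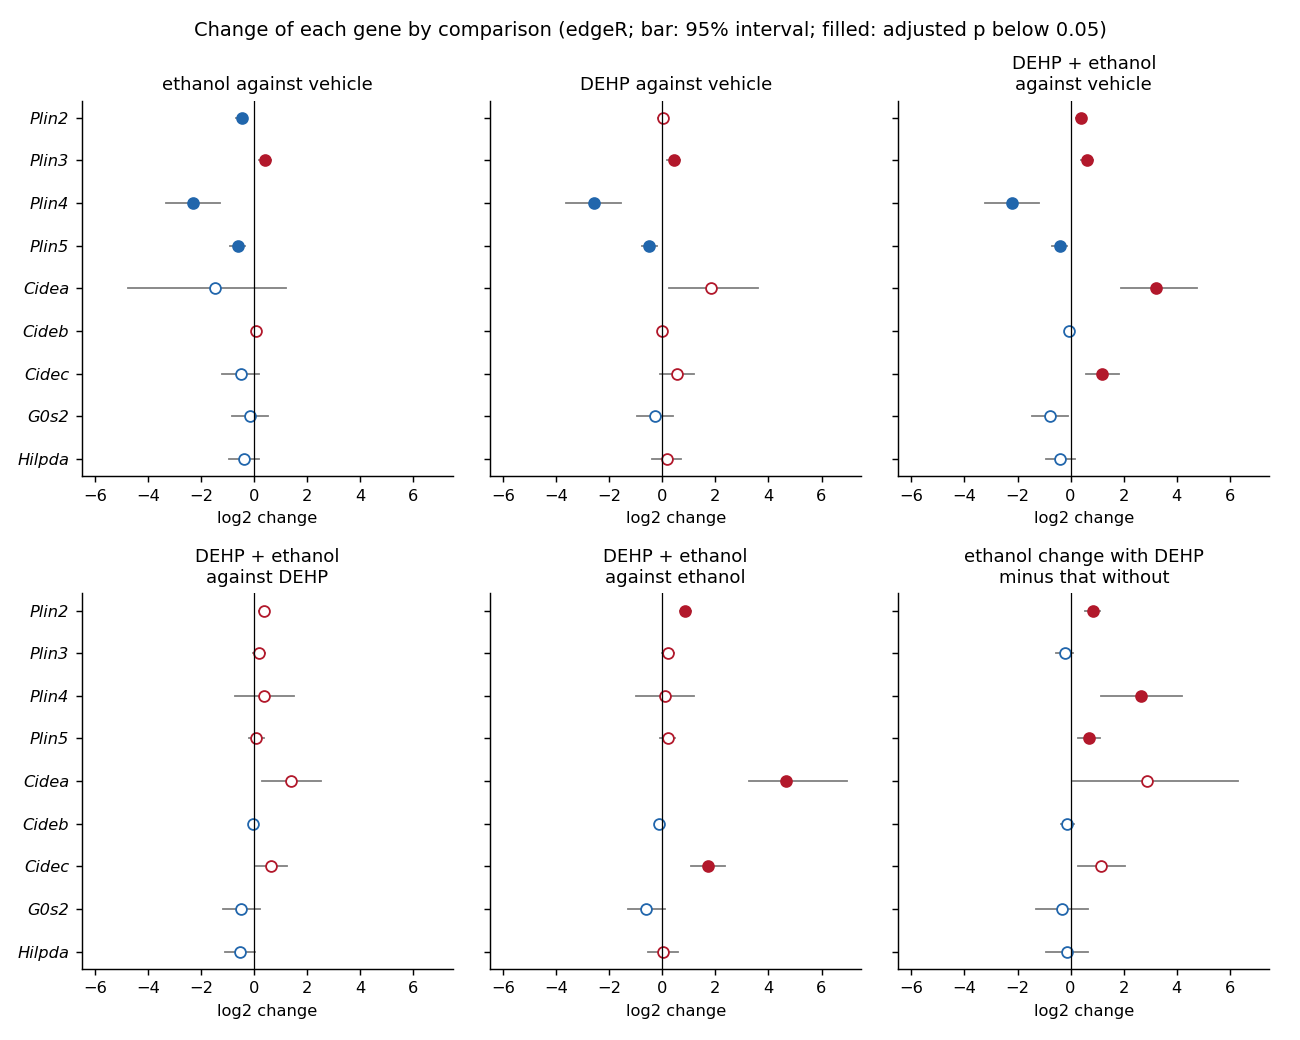
Log2 change of each of the 9 genes (horizontal axes) in the 6 comparisons, one per panel. Points are edgeR estimates, bars 95% intervals, and filled points passed at an adjusted p below 0.05. Cidea had the widest intervals, and Cideb the narrowest around 0.

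Plin2 stood in the order ethanol, vehicle and DEHP, combination. Its lowest, median and highest FPKM were 246, 288 and 320 with vehicle and 177, 191 and 224 with ethanol. Corresponding values were 254, 283 and 362 with DEHP and 334, 366 and 438 with the combination. All 6 ethanol libraries lay below all 6 vehicle libraries, and all 6 combination libraries lay above the vehicle and ethanol libraries, while DEHP overlapped vehicle and the combination. Such a separation from vehicle was seen for 6.76% of genes on the lower side after ethanol and for 10.7% on the higher side after the combination. A separation of the combination above ethanol was seen for 11.3% of genes.

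The fall of Plin2 with ethanol was -0.48 ± 0.10 on the log2 scale (SE, adjusted p = 0.000934), and the rise with the combination over vehicle 0.39 ± 0.10 (adjusted p = 0.00287). DEHP alone gave 0.02 ± 0.10 (95% interval -0.18 to 0.22, adjusted p = 0.905). Over ethanol, the combination was higher by 0.86 ± 0.10 (adjusted p = 2.46e-07). Over DEHP it was higher by 0.37 ± 0.10, with an unadjusted p of 0.000817 and an adjusted p of 0.165 by the edgeR quasi-likelihood test. That difference passed without DEHP replicate 1, the highest DEHP library (adjusted p = 0.0446), and in DESeq2 (adjusted p = 0.0444). Ethanol thus went with less Plin2 in the absence of DEHP and with no fall in its presence, a difference of 0.84 ± 0.14 between the ethanol changes (95% interval 0.56 to 1.13, adjusted p = 0.000649). It was 0.89 without the 3 libraries with other tissue.

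Plin3 is a soluble perilipin that covers nascent droplets. It measured 17.4, 22.7 and 29.1 FPKM (lowest, median and highest) with vehicle, 26.6, 29.1 and 31.2 with ethanol, 25.0, 30.8 and 39.4 with DEHP, and 29.7, 35.4 and 38.7 with the combination. The single treatments overlapped vehicle, and the combination did not, as on the higher side for 10.7% of genes. Over vehicle, Plin3 rose by 0.41 ± 0.11 with ethanol (adjusted p = 0.00967), 0.42 ± 0.11 with DEHP (adjusted p = 0.00713) and 0.61 ± 0.11 with the combination (adjusted p = 0.000151). The change with ethanol was no longer called on TPM (0.25, adjusted p = 0.123), a scale on which the median of all genes moved by -0.14. The interaction was -0.22 ± 0.16 (95% interval -0.54 to 0.11, adjusted p = 0.425).

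Plin4 fell most in size among the 9 genes. This perilipin is abundant in adipose tissue and muscle and scarce in liver, and its gene lies on chromosome 17 (56100587 to 56109948, GRCm38.p6) 1648 bases from Plin5 on the same strand. Levels were 1.92, 4.59 and 7.88 FPKM (lowest, median and highest) with vehicle and 0.44, 0.91 and 1.66 with ethanol. They were 0.64, 0.765 and 0.95 with DEHP and 0.25, 0.465 and 4.09 with the combination. Every ethanol and DEHP library was below every vehicle library, as for 6.76% and 2.72% of genes. In the combination group that held for all libraries but replicate 6. Plin4 passed the filter on low values only with the help of the vehicle libraries. The shares, taken over genes that passed it, are therefore no measure for Plin4.

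Within the vehicle group, replicates 1, 4 and 6 were at 7.88, 6.56 and 6.68 FPKM of Plin4 and replicates 2, 3 and 5 at 2.16, 1.92 and 2.62. Skeletal muscle markers summed to 6778 FPKM in vehicle replicate 1 and to 5094 in combination replicate 6, the high library of its group. In vehicle replicates 4 and 6 they summed to 3.88 and 4.56 FPKM, and in the other 3 vehicle libraries to between 3.13 and 4.31. Vehicle replicate 1 and combination replicate 6 also held 7 and 9 of 10 adipocyte markers above 1 FPKM, with Plin1 at 0.30 and 1.62 FPKM. DEHP replicate 6 held 8 of them, with Plin1 at 1.73 and Plin4 at 0.89 FPKM. The part of muscle or fat in the high Plin4 of vehicle replicate 1 and combination replicate 6 was not tested. The high values of vehicle replicates 4 and 6 stood beside muscle sums near those of the low vehicle libraries.

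The log2 change of Plin4 against vehicle was -2.30 ± 0.50 with ethanol (adjusted p = 0.00174), -2.59 ± 0.51 with DEHP (adjusted p = 0.000519) and -2.22 ± 0.50 with the combination (adjusted p = 0.00107). With no filter on low values the adjusted p were 0.00296, 0.000862 and 0.0017. Without the 3 libraries with other tissue these were -2.12, -2.44 and -3.37. The last of these moved by more than 1.5 times, and was -3.55 without combination replicate 6 alone. Against ethanol, the combination gave 0.08 ± 0.53 with all libraries and -1.25 ± 0.39 without the 3 (adjusted p = 0.0173). The interaction of 2.67 ± 0.74 (adjusted p = 0.0286) became 1.19 (adjusted p = 0.221) without them. It was also lost when vehicle replicate 1, combination replicate 6 or DEHP replicate 2 was left out singly (adjusted p = 0.0504, 0.12 and 0.0511), and in 4 settings of limma (1.38 to 1.73, adjusted p from 0.0529 to 0.192).

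**Figure D3:**
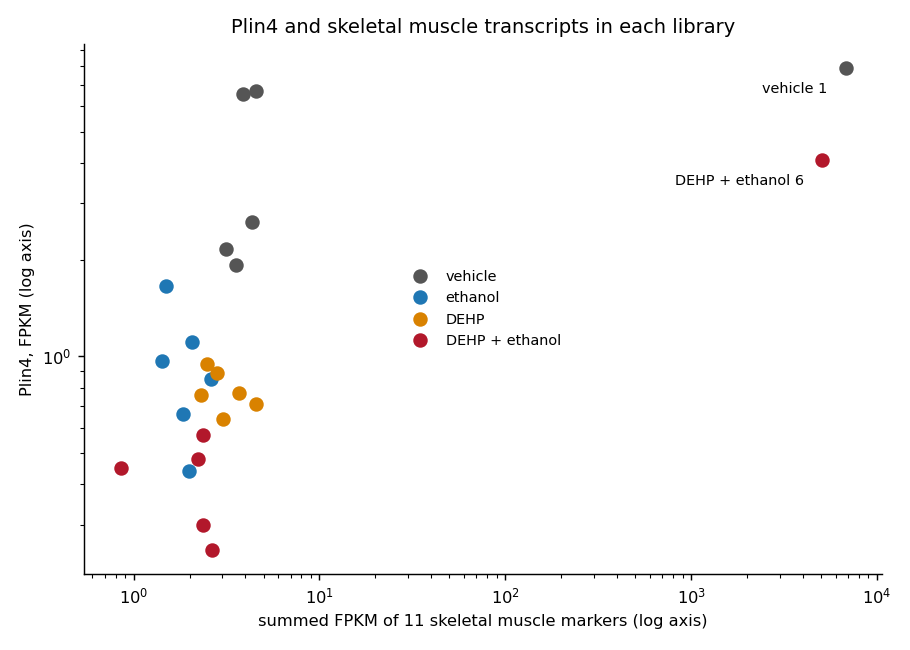
Plin4 in FPKM (vertical, log axis) against the summed FPKM of 11 skeletal muscle markers (horizontal, log axis), one point per library, coloured by group. Vehicle replicate 1 and combination replicate 6 stand apart at 6778 and 5094 FPKM of muscle markers, and vehicle replicates 4 and 6 had 6.56 and 6.68 FPKM of Plin4 at muscle sums of 3.88 and 4.56.

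Plin5, which tethers droplets to mitochondria and is found in tissues that burn fat, was lower than vehicle in every treated group. The gene spans 56111597 to 56117606 on chromosome 17. Its lowest, median and highest levels were 32.9, 40.2 and 65.9 FPKM with vehicle, 22.0, 27.65 and 29.5 with ethanol, 25.8, 32.0 and 40.4 with DEHP, and 31.2, 32.4 and 37.3 with the combination. Ethanol libraries overlapped neither vehicle nor combination libraries. A separation of ethanol below vehicle was seen for 6.76% of genes. Vehicle replicate 4 was the highest of all.

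Plin5 fell by 0.62 ± 0.14 on the log2 scale with ethanol (adjusted p = 0.00198), by 0.49 ± 0.14 with DEHP (adjusted p = 0.0101) and by 0.42 ± 0.14 with the combination (adjusted p = 0.0194). Leaving out vehicle replicate 4 ended the last of these calls (-0.26, adjusted p = 0.0847). The combination exceeded ethanol by 0.21 ± 0.14, which was not called (adjusted p = 0.284) although the FPKM values did not overlap, as was the case on the higher side for 11.3% of genes. The interaction was 0.70 ± 0.19 (adjusted p = 0.0312), and 0.80 without the 3 libraries with other tissue (adjusted p = 0.0293). It was lost when any of DEHP replicates 3 and 6 or ethanol replicates 3 and 6 was left out, with adjusted p up to 0.0548.

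Cidea and Cidec, the CIDE genes that are low in lean liver and rise in fatty liver, were highest in the combination. Cidea, best known from brown fat, was listed in 15 of 24 libraries. With vehicle it was at 0.53 FPKM in replicate 1, 0.40 in replicate 3 and 0 in the other 4 libraries. With ethanol the values were 0.13 in replicates 1 and 4 and 0 in the other 4. DEHP gave 0, 0.66 and 1.05 FPKM (lowest, median and highest), and the combination 0.39, 1.43 and 2.96. The combination libraries lay above all ethanol libraries and overlapped the vehicle and DEHP libraries. Of all tested genes 11.3% lay above ethanol in this way. That share is no measure for Cidea, which passed the filter on low values only with the help of the combination libraries.

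These levels of Cidea rest on 7 expected counts in the whole vehicle group, 2 in ethanol, 27 in DEHP and 73 in the combination. Only 5 combination libraries and 1 DEHP library reached 1 FPKM, which is how the gene entered the test, so it had to be high there. With no filter on low values, the combination against vehicle gave 3.20 ± 0.79 (log2, adjusted p = 0.00311), and with it 3.21 ± 0.69 (adjusted p = 0.000549). Under a filter that asks for 10 counts in 6 libraries Cidea was not tested. With the FPKM filter, DEHP against vehicle gave 1.81 ± 0.81 (95% interval 0.24 to 3.60, adjusted p = 0.0841). The latter passed without vehicle replicate 1 (2.64, adjusted p = 0.0323) or without DEHP replicate 5 (2.06, adjusted p = 0.0343). The ratio of summed counts of combination to ethanol was 36.5, with an exact 95% interval of 9.74 to 307 that covers counting error only. The brown fat gene Ucp1 was at 2.87 FPKM in combination replicate 6 and 0.09 in ethanol replicate 3, and was not listed in the other 22 libraries. The change of Cidea with the combination was 3.95 without the 3 libraries with other tissue, of which combination replicate 6 is 1 (adjusted p = 0.000661).

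Cidec, also called FSP27, drives the fusion of droplets. Its expected counts were 16, 22 and 35 (lowest, median and highest) with vehicle, 6, 12.5 and 32 with ethanol, 16, 37.5 and 51 with DEHP, and 38, 52 and 89 with the combination. In FPKM the medians were 1.06, 0.63, 2.62 and 3.80. All 6 combination libraries were above all vehicle and all ethanol libraries on both scales. In FPKM, such a separation on the higher side was seen for 10.7% of genes against vehicle and 11.3% against ethanol. Combination replicate 6, which held muscle and fat cell transcripts, was the highest at 6.93 FPKM.

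The combination raised Cidec counts over vehicle by 1.20 ± 0.30 (log2, adjusted p = 0.00276) and over ethanol by 1.71 ± 0.31 (adjusted p = 0.000151). Without the 3 libraries with other tissue the changes were 1.14 and 1.52, both called. DEHP alone gave 0.55 ± 0.31 (95% interval -0.08 to 1.18, adjusted p = 0.192), and ethanol alone -0.51 ± 0.33 (95% interval -1.20 to 0.16, adjusted p = 0.241). The interaction of 1.16 ± 0.44 did not pass (adjusted p = 0.104), and passed without ethanol replicate 5 (adjusted p = 0.0375).

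The deposited transcript length of Cidec, an average weighted by the transcripts to which reads were assigned, differed between the groups. It was 2685 ± 378 bases (SD, n = 6) with vehicle, 2970 ± 276 with ethanol, 2084 ± 189 with DEHP and 1922 ± 55.9 with the combination. The lengths of combination libraries, 1856 to 1997 bases, did not overlap those of vehicle libraries, 2081 to 3142, or ethanol libraries, 2498 to 3214. An exact two-sided permutation test gave p = 0.00216 for each of those comparisons, the smallest that 6 against 6 libraries allow, and 0.0271 after adjustment over 25 length comparisons. DEHP against vehicle gave an exact p of 0.00866 (adjusted 0.0722). Cidec was singled out after its lengths had been seen.

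Among 6016 genes of varying length, 0.814% had shorter lengths without overlap in the combination than in ethanol, and 1.15% than in vehicle. Cidec has 4 listed transcripts, 2 known and 2 newly assembled. In GENCODE the known ones measure 1703 and 1720 bases, shorter than every deposited length. Deposited lengths do not follow GENCODE, however, since Plin3, with 1 listed transcript, has 2159 bases deposited and 3645 in GENCODE. The comparison therefore does not show which Cidec transcripts contributed. FPKM divides by a length that is shorter than the deposited one and varies with it, so the rise in FPKM exceeded that in counts. When the length entered the edgeR model, an alternative added after the lengths were seen, the combination was above vehicle by 1.63 and above ethanol by 2.33. How the counts themselves were divided among transcripts is not given in the sources used here, and the shares rest on the few counts named above.

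**Figure D4:**
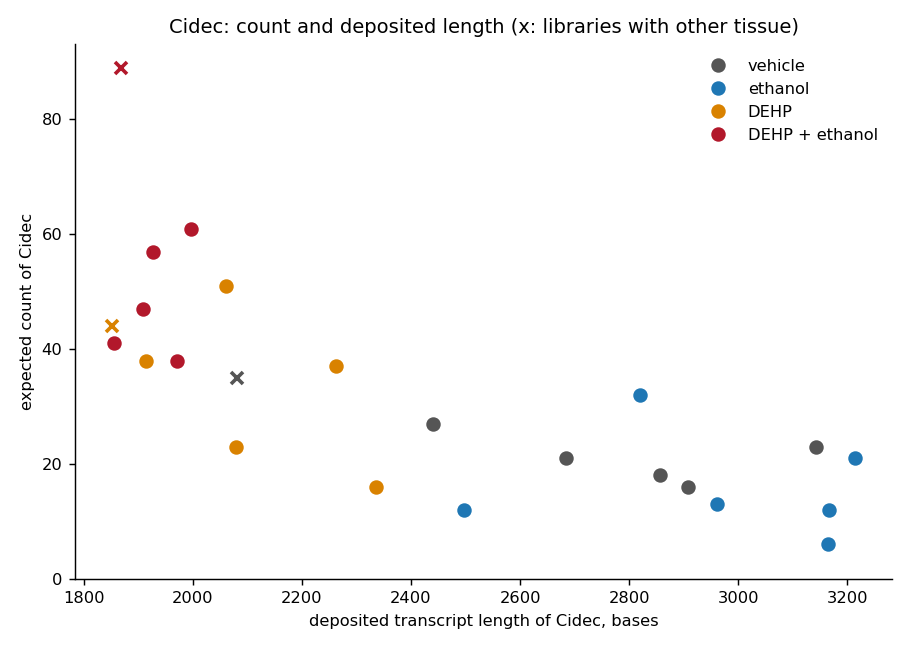
Expected count of Cidec (vertical axis, from 0) against its deposited transcript length in bases (horizontal axis), one point per library, coloured by group, with crosses for the 3 libraries with other tissue. The 6 combination libraries lie at 1856 to 1997 bases with 38 to 89 counts, and the 6 ethanol libraries at 2498 to 3214 bases with 6 to 32 counts.

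Cideb was the steadiest of the set. Its lowest, median and highest levels were 209.7, 270.6 and 294 FPKM with vehicle, 242, 268.5 and 291 with ethanol, 238, 268 and 293 with DEHP, and 229, 260 and 277 with the combination. All groups overlapped. The changes against vehicle were 0.07 ± 0.08 with ethanol (95% interval -0.09 to 0.24), 0.00 ± 0.08 with DEHP (-0.17 to 0.17) and -0.04 ± 0.08 with the combination (-0.21 to 0.12). The sign of the first and second of these small values depended on the scaling.

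The inhibitors of adipose triglyceride lipase were not called in any comparison. G0s2 ranged from 25.8 to 118 FPKM with vehicle (median 62.3), 32.8 to 108 with ethanol (median 50.2), 23.8 to 93.8 with DEHP (median 54.4) and 21.6 to 73.4 with the combination (median 32.3). Libraries of 1 group differed by up to 4.57-fold, so all groups overlapped. The combination against vehicle gave -0.77 ± 0.34 (95% interval -1.47 to -0.08, adjusted p = 0.074), which passed without vehicle replicate 3 (-0.95, adjusted p = 0.0258) or combination replicate 4 (-1.07, adjusted p = 0.0153). Hilpda, a hypoxia-inducible inhibitor, had median levels of 2.39 FPKM with vehicle, 2.13 with ethanol, 2.90 with DEHP and 2.09 with the combination, on 3 to 25 counts per library. Its changes against vehicle were -0.40 ± 0.28 with ethanol, 0.16 ± 0.26 with DEHP and -0.38 ± 0.27 with the combination, each with a 95% interval that includes 0.

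The genes most like each called gene were ranked by the mean absolute difference of centred log2 CPM over the 24 libraries. For Plin2, whose own mean absolute deviation was 0.28, these included Tmem64 (0.16) and Dnajb2 (0.17). For Plin4 (1.08) they were Pfkfb3 (0.62), Noct (0.65) and Meg3 (0.66), and for Cidec (0.67) Hspb1 (0.33), Tln2 (0.38) and Polr3gl (0.39). Zfp385c, Itpk1 and Tmem184b were nearest to Plin3, Myo1e, Slc25a22 and Tomm20 to Plin5, and Fbp2, Ten1 and Rcan2 to Cidea. For Plin5 the nearest gene differed by 0.17 on average, not far below the 0.22 of its own deviation, so its pattern had no close match.

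Genes that form droplets moved in both directions. Of 12 tested, 2 rose and 1 fell with ethanol, 4 rose and 1 fell with DEHP, and 5 rose and 2 fell with the combination, all against vehicle. As above, 28.8%, 26.0% and 36.8% of all genes were called in these 3 comparisons, to be read beside the counts of each list. Lpin2, a phosphatidate phosphatase, fell with ethanol from 70.5 ± 8.7 to 29.5 ± 6.6 FPKM (log2 -1.19 ± 0.13, adjusted p = 9.95e-07). Its interaction was positive (1.02 ± 0.19, adjusted p = 0.00198), as for Plin2. Dgat2, which makes the last bond of triglyceride, was higher with ethanol (0.44 ± 0.07) and lower with DEHP (-0.20 ± 0.07), and its interaction was -0.45 ± 0.10 (adjusted p = 0.00974). Fitm1, which partitions triglyceride into droplets, rose from 27.2 ± 8.7 to 71.5 ± 18.3 FPKM with DEHP (1.38 ± 0.19, adjusted p = 7.3e-06), and the seipin gene Bscl2 rose by 0.54 ± 0.11. Without the 3 libraries with other tissue the counts were 3 and 1 with ethanol, 4 and 2 with DEHP, and 5 and 2 with the combination. For all lists, counts without those libraries stand beside 24.9%, 19.6% and 35.0% of all genes called in the same order.

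Of 10 genes of droplet lipolysis and lipophagy, 2 rose and 2 fell with ethanol, and 4 rose and 0 fell with DEHP and with the combination, the latter 4 of 10 beside 36.8% of all genes. With the 3 libraries with other tissue left out, 5 rose with the combination, Abhd5 being added (0.35, adjusted p = 0.0389). Pnpla2, adipose triglyceride lipase itself, rose by 0.70 ± 0.12 with ethanol (adjusted p = 0.000229), 0.43 ± 0.12 with DEHP and 0.58 ± 0.12 with the combination. Lipe, hormone-sensitive lipase, rose by 1.06 ± 0.13, 0.78 ± 0.13 and 1.03 ± 0.13 in the same order. Mgll, which completes the breakdown of glycerides, rose with DEHP (1.30 ± 0.19, adjusted p = 1.99e-05) and the combination (1.55 ± 0.19). Pnpla3, a lipase relative on droplets, fell with ethanol from 0.762 ± 0.923 to 0.113 ± 0.058 FPKM (-2.62 ± 0.68, adjusted p = 0.00557). Its interaction was 4.70 ± 0.87 (adjusted p = 0.00179). Like Plin4 and Cidea, Pnpla3 passed the filter on low values only with the help of its highest group, the combination (1.46 ± 0.69 FPKM). Its changes without that filter are not given here, and it is 1 of the 2 that fell with ethanol.

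Among 13 tested genes of other droplet surface proteins, of 14 listed, 2 rose and 1 fell with ethanol, 5 rose and 0 fell with DEHP, and 5 rose and 1 fell with the combination. The shares of all genes called were those given for droplet formation, and 3 of 13 with ethanol stands beside 28.8%. Without the 3 libraries with other tissue, 4 rose with DEHP, Rdh10 no longer being called (0.30, adjusted p = 0.085), and 2 fell with ethanol, Hsd17b13 being added (-0.41, adjusted p = 0.0211). Hsd17b11, a short-chain dehydrogenase of the droplet surface, rose with DEHP from 97.4 ± 17.3 to 589 ± 52.1 FPKM (2.58 ± 0.11, adjusted p = 6.53e-15). With ethanol its mean was 97.6 ± 3.0 FPKM. The sterol synthesis genes Nsdhl (0.97 ± 0.11) and Sqle (0.72 ± 0.18) and the methyltransferase-like gene Mettl7b (0.45 ± 0.12) rose with DEHP. With ethanol Vps13c, a lipid transfer protein, fell by 0.43 ± 0.11, and Osbpl2 and Aup1 rose by 0.38 ± 0.09 and 0.27 ± 0.08.

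**Figure D5:**
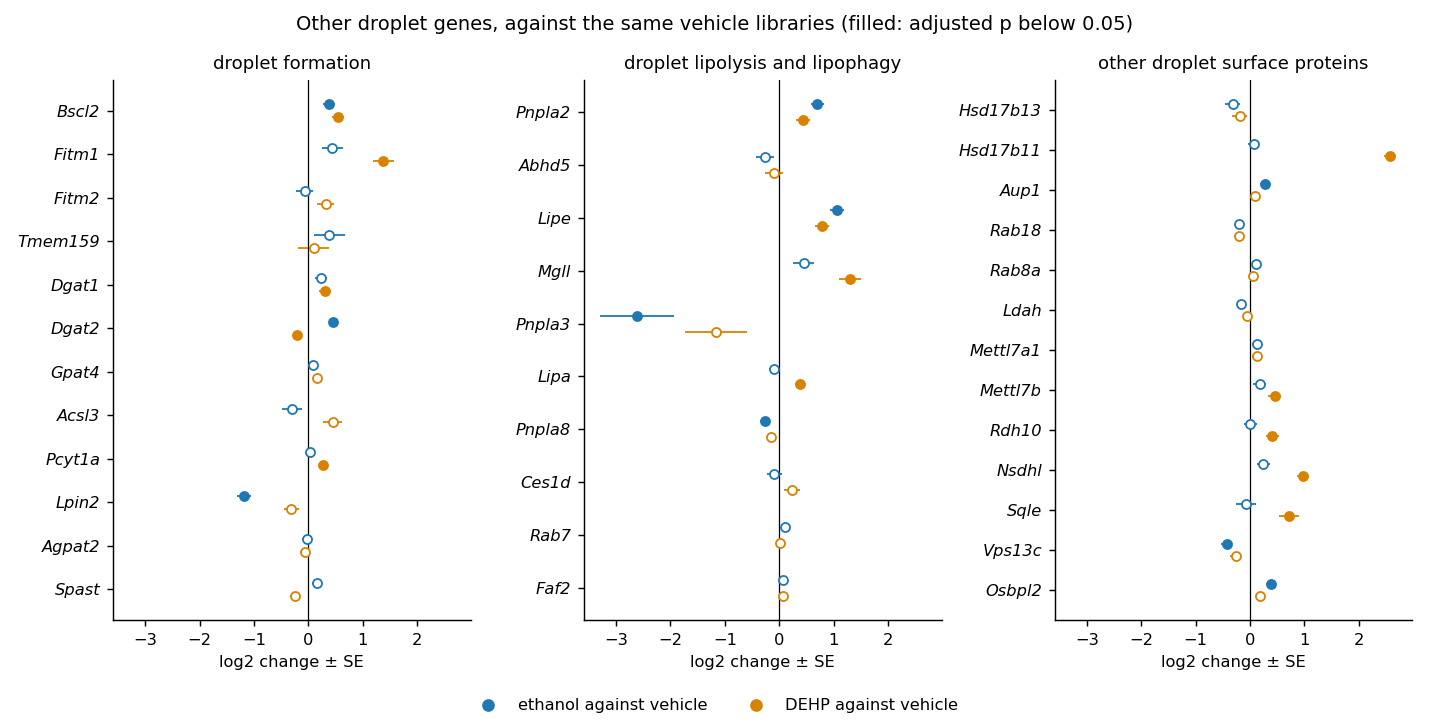
Log2 change ± SE (horizontal axes) of genes of droplet formation, lipolysis and lipophagy, and other droplet surface proteins, with ethanol (blue) and DEHP (orange) against the same 6 vehicle libraries. Filled points passed at an adjusted p below 0.05. Hsd17b11 had the largest change with DEHP, 2.58, and Pnpla3 the largest with ethanol, -2.62. Pnpla3 passed the filter on low values only with the help of the combination group.

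As a check of exposure, PPAR alpha targets outside the droplet were examined. Of 9 tested, 7 rose with DEHP and 7 with the combination, and 1 rose and 2 fell with ethanol. Ehhadh, of peroxisomal oxidation, was at 98.1 ± 23.4 FPKM with vehicle, 101.2 ± 9.6 with ethanol, 2457 ± 803 with DEHP and 2659 ± 782 with the combination. Its change with DEHP was 4.63 ± 0.24 (adjusted p = 4.15e-13). The fatty acid hydroxylase gene Cyp4a10 changed by 4.51 ± 0.30. The 2 that fell with ethanol, Cpt1b and Pdk4, are also expressed in muscle, and neither was called without the 3 libraries with other tissue. All 9 then rose with DEHP and with the combination. With DEHP alone Plin2, at 293 ± 37.4 FPKM against 286 ± 30.8 with vehicle, did not move with these genes. In the combination Plin2 was called higher than vehicle by edgeR (0.39 ± 0.10, adjusted p = 0.00287). Over ethanol, where all 9 targets were higher in the combination, Plin2 was higher by 0.86 ± 0.10 (adjusted p = 2.46e-07).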

How the data were processed

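RNA of mouse livers was sequenced in 24 libraries, 6 per group, grouped and numbered by title. The authors deposited, for each library, an expected count (estimated reads per gene), a transcript length in bases and FPKM, per the file headers, leaving out genes at 0. A gene without a row was taken as 0. The submitters' processing notes name Cuffdiff, mm10 and GRCm38, with no role. Aligner, counting program and strand setting: not given in the sources used here.

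Expected counts were rounded and tested in edgeR 4.0.16 (R 4.3.3) by the quasi-likelihood F test, with TMM factors, all 4 groups in one model, 20 residual degrees of freedom and no other covariate. Tested genes had 1 FPKM or more in at least 6 of 24 libraries, and p-values were adjusted over all 10697 tested genes by the Benjamini-Hochberg method, with a threshold of 0.05. Log2 changes carry edgeR's default shrinkage, SE is the unshrunken change over the square root of F, and means ± SD are in FPKM. Lengths were compared by exact permutation tests in scipy 1.17.1. The method was tested on simulated data.

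The 9 genes and all lists were chosen with earlier results of these data known. Named are the 9 genes, up to 4 called genes with the smallest adjusted p per list and comparison, and the 3 genes most like each called one, predicted genes left out; 2 genes that this rule names are not reported here. Exceptions, chosen after their values were seen, are Plin1, Ucp1, Pnpla3, Abhd5, Rdh10, Hsd17b13 and Cidec's length. Alternatives were DESeq2 1.42.0, limma 3.58.1 on log2(FPKM + 1), log2(FPKM + 0.1) or log2(TPM + 1) (TPM rescaled from FPKM), voom with quantile normalization, other scalings and filters, a replicate block, and each library left out. A gene taken as 0 may be expressed too low to be counted at this depth, and intervals from counts cover counting error only. 1 hepatocyte marker was not analysed here.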

Additional observations from a re-analysis of the deposited data

Results flagged for a closer look

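In 4 of the 36 groups of 6 libraries examined (9 genes in 4 treatments), the highest or lowest library stood farther from the rest than Dixon's 95% critical value for the share of the range. Chance flags about 1 in 20 groups. Plin4 was at 4.09 FPKM in combination replicate 6, against at most 0.57 in the other 5 libraries of that group, and this library also held 5094 FPKM of skeletal muscle markers. Plin5 was at 22.01 FPKM in ethanol replicate 6, the next lowest being 26.94, and at 37.26 FPKM in combination replicate 2, the next highest being 32.90. G0s2 was at 108.09 FPKM in ethanol replicate 4, the next highest being 57.67.

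The log2 change with ethanol differed between livers with and without DEHP for 3 genes by edgeR's interaction test, by 0.84 for Plin2 (adjusted p = 0.000649), 2.67 for Plin4 (adjusted p = 0.0286) and 0.70 for Plin5 (adjusted p = 0.0312). For Plin4 the value was 1.19 and not called without vehicle replicate 1, combination replicate 6 and DEHP replicate 6.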

How the results depend on the processing

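Of 741 log2 changes recomputed for the 9 genes under settings other than leaving out a library, 700 kept their direction and their side of the threshold. So did 1254 of 1296 changes with 1 library left out. None of the 56 changes that reversed sign was called with all libraries in edgeR, and 2 of them were called in the alternative, both Plin4 in the combination against ethanol. The cause of these differences was not tested. DESeq2 called 1 of the 9 genes in the combination against DEHP, and leaving out single libraries gave 0 to 1. Under the filter of 10 counts in 6 libraries Cidea was not tested, so its calls were lost, leaving 5 genes called in the combination against vehicle and 2 against ethanol. On TPM 5 genes were called in the combination against ethanol, Plin3 (0.33) and Plin5 (0.34) being added. Plin3 was also called there with only the compared groups (0.20), and Cideb with voom (-0.21).

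Plin4 reversed against DEHP to -0.035 on log2(FPKM + 1), -0.32 on log2(FPKM + 0.1), -0.10 on TPM, -0.44 with voom, -0.015 with the replicate block and -0.93 without the 3 libraries with other tissue. Against ethanol it gave -0.14, -0.47, -0.16, -0.70, -0.28 and -1.25 in the same order. Cideb reversed for ethanol to -0.0037 by library size alone, -0.086 on TPM and -0.0058 without the 3 libraries. For DEHP it gave -0.0091 in DESeq2, -0.0092 with RLE factors, -0.012 without a filter, -0.081 with voom, -0.018 with only the compared groups, -0.11 without the 3 libraries and -0.0059 with the length in the model. Cideb was 0.014 (combination against DEHP) and 0.0195 (interaction) without the 3 libraries, and 0.0077 on TPM (combination against ethanol). Plin2 with DEHP was -0.10 with voom. Hilpda was -0.013 against ethanol without the 3 libraries, and its interaction was 0.047 on log2(FPKM + 0.1) and 0.0385 on TPM.

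With each library left out, values ranged for Cideb from -0.0032 to 0.11 with ethanol and -0.0716 to 0.0382 with DEHP, for Plin2 from -0.0535 to 0.0581 with DEHP, for G0s2 from -0.43 to 0.0776 with ethanol, for Plin4 from -0.96 to 0.57 (combination against DEHP) and -1.24 to 0.30 (against ethanol), and for Hilpda from -0.18 to 0.12 (against ethanol).

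Replicate numbers gave no sign of pairing. Same-numbered libraries of different groups correlated at -0.21 to 0.21 (median -0.01), and differently numbered ones at -0.31 to 0.54 (median -0.002). Such values cannot show whether the design paired libraries or handled them in batches, and the sample titles do not say. With the replicate block, 7 genes were called in the combination against vehicle in place of 6, the added one being G0s2 (-0.83, adjusted p = 0.0435). Over all genes, the combination against DEHP gave 13 calls, 44 in DESeq2, 5 with the block and 0 to 18 with 1 library left out, and the interaction 686, or 365 without the 3 libraries. Other settings gave between 1 and 44 for the former. Among calls, 49.5% were higher with ethanol, against 31.1% by library size, 38.0% and 38.3% on FPKM and 14.8% on TPM. For the combination against ethanol 54.4% became 70.6%, 69.1%, 69.6% and 78.7%, where TPM moved the median of all genes by 0.11, and for the interaction 51.7% became 68.8% by library size, 60.3% and 61.2% on FPKM, 78.5% on TPM and 41.3% with voom. Depth limits Cidea, Hilpda and Cidec, with at most 89 counts in any library.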
